A study of Mus musculus with 4 samples.

Results

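A set of 9 genes of the transcription factor complex TFIID and its relatives was followed in ribosome footprints of day 10 mouse testes. They comprised 4 paralogs grouped here as germ cell paralogs (Taf4b, Taf7l, Taf9b and Tbpl1) and 5 general counterparts (Taf1, Taf4, Taf7, Taf9 and Tbp). The genes and their grouping were set by name, with no measure of germ cell enrichment in these data. Rows were found for 8 of these 9 among the 14984 genes of the deposited table, with Taf4 listed under its older symbol Taf4a. Taf9 was not analysed here, so Taf9b has no counterpart to be set against. The study profiled 2 testis samples with Eif5 removed from germ cells (Eif5 cKO, from Eif5 fl/fl mice crossed to the Stra8-Cre transgene) and 2 control testis samples. The Stra8 promoter drives Cre in germ cells, beginning in spermatogonia, while testes also hold somatic cells in which the transgene is not meant to act. Neither the alleles of the controls, nor the strain, nor how many animals went into a sample is given in the sources used here.

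TFIID is made of the TATA-binding protein Tbp and its associated factors, the Tafs. It recognises the core promoter and nucleates the assembly of RNA polymerase II with the other general factors. Germ cells express variants of several subunits. Taf4b is a gonad-enriched relative of Taf4 whose loss in mice leads to failure of the male germ line with age. Taf7l is an X-linked, testis-rich relative of Taf7, and Tbpl1 (also called Trf2 or Tlf) is a Tbp-like factor that does not bind the TATA box and is needed for spermatid development in mice. A footprint count depends both on the amount of an mRNA and on how densely ribosomes occupy it, and in whole testes fewer cells of a type and less RNA per cell cannot be told apart.

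The libraries held 2296938 to 2934609 recovered reads. The deposited values are reads divided by a size factor of each library, here called scaled reads. They carry no correction for gene length, so levels of different genes are not compared. Eif5, the deleted gene, had 173 and 266 scaled reads in the Eif5 cKO libraries, against 365 and 304 in the controls (log2 fold change -0.63, SE 0.25, adjusted p = 0.319). Both knockout libraries lay below both controls, though the gene did not pass the test. The labels do not tell whether replicates stand for different animals. The p-values therefore refer only to the scatter of these 4 libraries, part of which may be technical. Each SE and p-value rests mostly on variance shared across genes (37.02 prior against 2 residual degrees of freedom). They do not measure a gene's own spread alone.

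All 8 measured members had lower mean footprint values in Eif5 cKO than in control testes, and 1 of them, Taf7l, fell past the test. Their log2 fold changes ran from -1.002 for Taf7l to -0.23 for Taf7 and Tbpl1, with a median of -0.67, while the median of all 12095 genes tested was 0.003. A negative log2 fold change was seen for 49.7% of all genes tested. All 8 members passed the filter on low reads. At an adjusted p under 0.05, 1 of 8 members was lower and 0 were higher, against 0.604% and 0.0744% of all genes tested. A total of 4 members (Taf4b, Taf7l, Taf9b and Taf1) had an unadjusted p under 0.05, all lower, against 6.31% of all genes. In 6 of 8 members both Eif5 cKO libraries lay below both controls, which held for 20.9% of all genes. The groups overlapped for the other 2, Tbpl1 and Taf7.

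**Figure D1:**
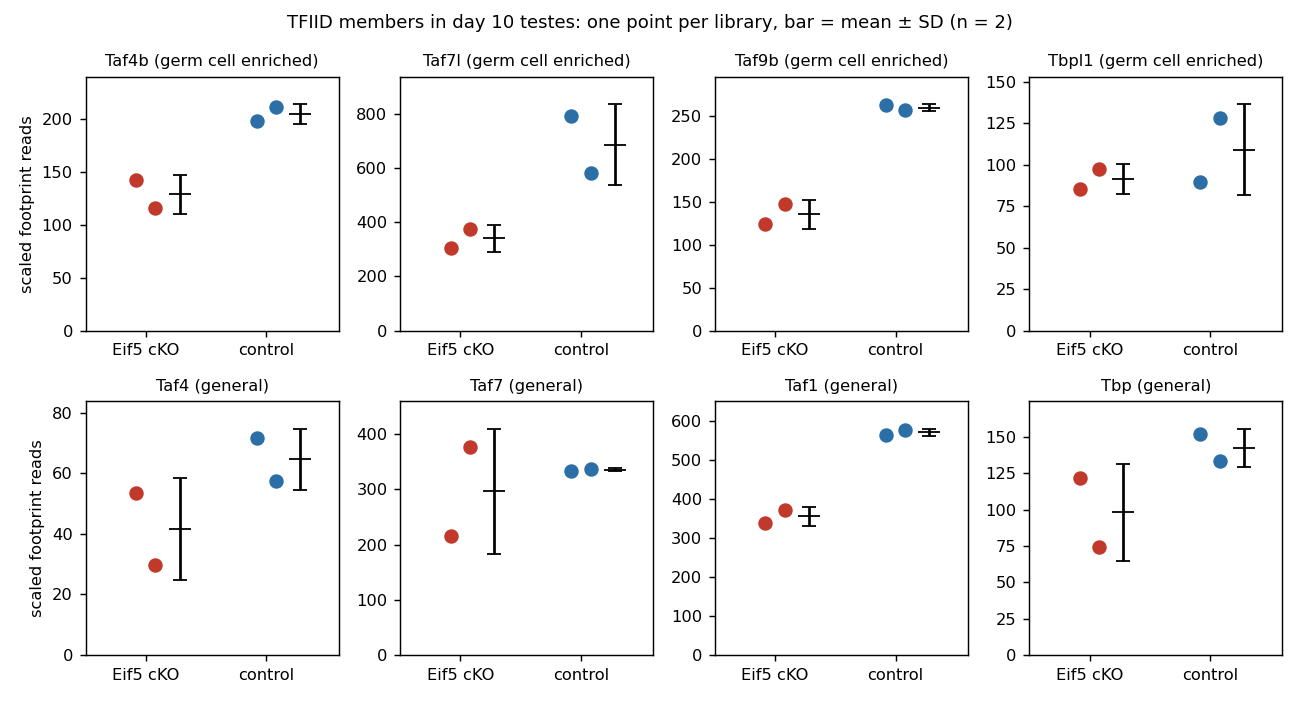
Scaled footprint reads (y axis, linear from 0, its own scale in each panel) of the 8 measured members in the Eif5 cKO (left, red) and control (right, blue) libraries. Points are single libraries and black bars the mean ± SD (n = 2). The groups are separate in 6 panels and overlap for Tbpl1 and Taf7.

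Among the germ cell paralogs, Taf7l showed the largest decrease. It had 306 and 375 scaled reads in Eif5 cKO replicates 1 and 2, against 792 and 582 in control replicates 1 and 2. The Eif5 cKO mean of 340 ± 49.1 was 49.5% of the control mean of 687 ± 149 (SD, n = 2 each), and the lower control stood well above the higher knockout. On the log2 scale it fell by 1.002 (SE 0.23, with a 95% interval from -1.47 to -0.53), at an adjusted p of 0.0259. Behind these values stood 269 and 418 reads in Eif5 cKO and 971 and 507 in control. The call was not kept without Eif5 cKO replicate 1 (adjusted p = 0.136), control replicate 1 (0.649) or control replicate 2 (0.0618), and it held without Eif5 cKO replicate 2 (0.00885). Over these 4 fits the log2 fold change stayed between -1.22 and -0.78.

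Taf9b, a histone-fold subunit closely related to Taf9, followed with nearly the same size of difference. It had 124 and 147.1 scaled reads in Eif5 cKO, against 263 and 257 in control. The controls were close together and both knockout libraries lay far below them. Its log2 fold change was -0.94 (SE 0.26, 95% interval -1.46 to -0.42), yet the adjusted p of 0.0788 missed the threshold. Without Eif5 cKO replicate 2 the log2 fold change was -1.06 (adjusted p = 0.0282), and without Eif5 cKO replicate 1, control replicate 1 or control replicate 2 the adjusted p was 0.214, 0.638 or 0.479. In each such fit 1 group holds a lone library, which is assumed to vary like the other group.

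Taf4b, on chromosome 18 (14783201 to 14960424), had 142 and 116 scaled reads in Eif5 cKO, against 198 and 211 in control. The groups did not overlap and the knockout mean was 62.9% of the control mean. The log2 fold change of -0.67 (SE 0.27) did not pass (adjusted p = 0.322). Tbpl1, on chromosome 10 (22703877 to 22732666), had 85.2 and 97.8 scaled reads in Eif5 cKO, against 89.8 and 129 in control. Here the higher knockout lay above the lower control, and the difference was within the spread of the libraries (log2 fold change -0.23, SE 0.31, 95% interval -0.86 to 0.40, adjusted p = 0.848). The annotated end of Tbpl1 overlaps Slc2a12 by a few bases, and Slc2a12 itself had 28.4 and 25.1 scaled reads in Eif5 cKO, against 36.7 and 55.1 in control.

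**Figure D2:**
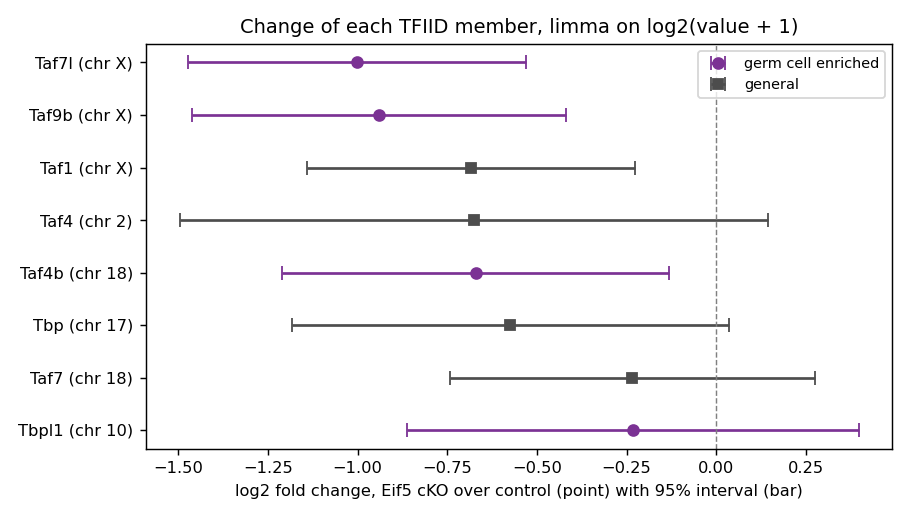
Log2 fold change, Eif5 cKO over control (x axis), of the 8 members (rows, with chromosome), as point estimates with 95% intervals from the limma fit. Circles are germ cell paralogs and squares general members. Taf7l and Taf9b lie furthest left at -1.002 and -0.94, and the intervals of Taf4, Tbp, Taf7 and Tbpl1 include 0.

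The 4 measured general members were lower by a median of 0.63 on the log2 scale, against 0.81 for the 4 germ cell paralogs. The germ cell median stayed the lower with any 1 library left out, but the gap varied. Germ cell and general medians were -0.82 and -0.77 without Eif5 cKO replicate 1, and -0.79 and -0.45 without Eif5 cKO replicate 2. None of the general members passed. Taf1, the scaffold subunit that carries bromodomains, had 339 and 372 scaled reads in Eif5 cKO, against 565 and 577 in control. Libraries within each group were close, with means of 355 ± 23.9 and 571 ± 8.93 (SD, n = 2 each), but the log2 fold change of -0.68 (SE 0.23) had an adjusted p of 0.186. Tbp, on chromosome 17 (15499888 to 15517427), had 122 and 74.5 scaled reads in Eif5 cKO, against 152 and 133 in control. It was lower in both knockout libraries, which differed from each other more than the controls did (-0.57, SE 0.30, adjusted p = 0.509).

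Taf4 (chromosome 2, 179912146 to 179976646), which pairs with Taf12 through a histone fold, was the member with the fewest reads. It had 53.4 and 29.6 scaled reads in Eif5 cKO, against 71.8 and 57.4 in control, and its log2 fold change was -0.68 with a wide 95% interval of -1.5 to 0.14 (adjusted p = 0.583). Taf7, a partner of Taf1 that restrains its acetyltransferase activity, had 216 and 377 scaled reads in Eif5 cKO, against 334 and 337 in control. It lies on chromosome 18 (37640491 to 37644204), within the annotated spans of 3 genes, Gm37013 among them, that were not analysed here. Its knockout libraries lay on either side of both controls (-0.23, SE 0.25, adjusted p = 0.798). Without Eif5 cKO replicate 1 the log2 fold change of Taf7 was 0.17. Ak6, whose annotated span overlaps that of Taf9, had 30.7 and 37.7 scaled reads in Eif5 cKO, against 49.0 and 40.2 in control (-0.37, SE 0.44, adjusted p = 0.823).

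Whether a germ cell paralog and its general counterpart differed in their change was read from the ratio of their scaled reads within each library, in which library scaling cancels. Taf7l over Taf7 was 1.41 and 0.995 in Eif5 cKO, against 2.37 and 1.72 in control. Both knockout ratios lay below both control ratios, and the mean log2 ratio was 0.25 ± 0.36 in Eif5 cKO and 1.01 ± 0.33 in control (SD, n = 2 each). The difference of -0.77 had an exact two-sided permutation p of 0.333, the smallest that 2 libraries against 2 can give. Taf4b over Taf4 was 2.63 and 3.81 in Eif5 cKO, against 2.74 and 3.63 in control. These ranges overlapped almost entirely, and the log2 difference was 0.006 (exact permutation p = 1). Tbpl1 over Tbp was 0.703 and 1.31 in Eif5 cKO, against 0.594 and 0.966 in control, a log2 difference of 0.34 with overlapping groups (exact permutation p = 0.667). Adjusted over the 3 pairs, every p was 1. With so few libraries these tests could not have passed, so they do not show that the members of a pair changed alike.

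**Figure D3:**
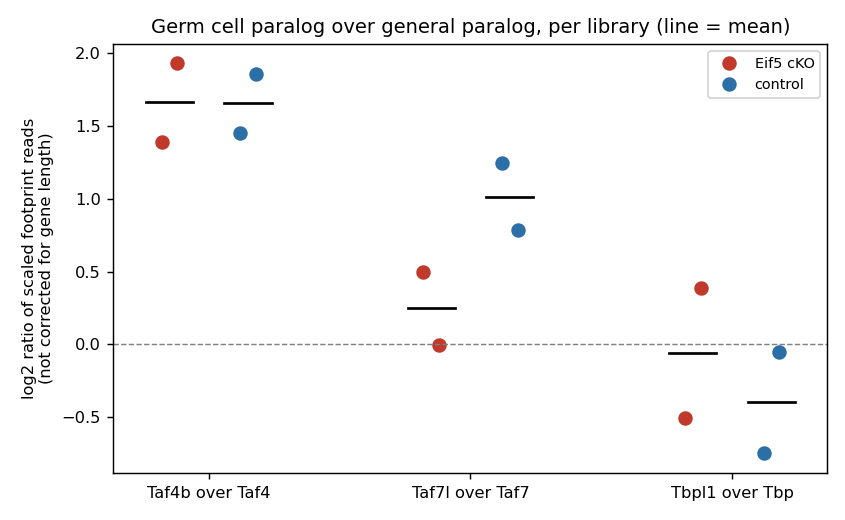
Log2 ratio of scaled reads of a germ cell paralog over its general counterpart (y axis, not corrected for gene length) for 3 pairs, with Eif5 cKO libraries in red on the left and controls in blue on the right of each pair. Lines are means of 2 libraries. The groups are separate for Taf7l over Taf7 (0.25 against 1.01) and overlap for the other pairs.

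The 3 X-linked members, Taf7l, Taf9b and Taf1, had a median log2 fold change of -0.94, against -0.57 for the 5 autosomal members. Taf1 (-0.68) was level with Taf4 (-0.68) and Taf4b (-0.67) within their errors. Without Eif5 cKO replicate 1 both medians were -0.82, the values of Taf9b and Taf4b in that fit. The 476 X-linked genes tested had a median of 0.04, against 0.002 for 11486 autosomal genes, and both knockout libraries lay below both controls for 20.4% and 21.0% of them. Among X-linked genes 11 were called lower (2.31%), Taf7l included, and 0 higher, against 62 lower (0.54%) and 9 higher among autosomal genes. The difference between these shares was not tested. Taf7l lies at 134460116 to 134476505, Taf9b at 106206874 to 106221158 and Taf1 at 101527572 to 101601789 on chromosome X (GRCm38).

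The 250 bases before an annotated start are shown for these X-linked members and, for contrast, for Tbpl1, which with Taf7 had the smallest fitted log2 fold change (both -0.23). The sequences come from RefSeq (GRCm38.p6) and run 5′ to 3′ on the strand of the gene. Such stretches were taken for 7 of the 9 members, and Taf4b and Taf7 were left out. Capitals mark matches, on either strand, to 6 motifs. These are the TATA box (TATAAA), the GC box (GGGCGG), the CCAAT box (CCAAT), the E box (CACGTG), the motif bound by Stra8 (CNCCTCAG) and the motif bound by Nrf1 (GCGCATGC). For Taf9b the first of its annotated starts in the direction of transcription is used. The starts used for Taf1, Tbpl1 and, by a few bases, Taf7l lie inside the annotated gene spans, not at their outer ends.
Taf7l, chrX:134476491-134476740, minus strand: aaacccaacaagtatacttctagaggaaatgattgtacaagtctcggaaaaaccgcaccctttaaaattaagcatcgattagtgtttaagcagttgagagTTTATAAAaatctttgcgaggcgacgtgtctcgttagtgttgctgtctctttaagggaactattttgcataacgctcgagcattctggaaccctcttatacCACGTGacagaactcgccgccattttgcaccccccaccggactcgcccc
Taf9b, chrX:106221159-106221408, minus strand: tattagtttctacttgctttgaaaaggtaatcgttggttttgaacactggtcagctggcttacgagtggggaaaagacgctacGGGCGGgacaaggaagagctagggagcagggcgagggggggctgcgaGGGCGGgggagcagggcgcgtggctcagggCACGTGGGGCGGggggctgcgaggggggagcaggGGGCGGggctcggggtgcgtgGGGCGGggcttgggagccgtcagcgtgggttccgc
Taf1, chrX:101532485-101532734, plus strand: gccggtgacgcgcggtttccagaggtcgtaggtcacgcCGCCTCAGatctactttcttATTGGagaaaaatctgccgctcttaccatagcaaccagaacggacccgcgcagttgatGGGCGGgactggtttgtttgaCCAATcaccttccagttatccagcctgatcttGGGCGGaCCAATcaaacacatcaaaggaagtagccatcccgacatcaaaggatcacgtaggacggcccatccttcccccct
Tbpl1, chr10:22731448-22731697, minus strand: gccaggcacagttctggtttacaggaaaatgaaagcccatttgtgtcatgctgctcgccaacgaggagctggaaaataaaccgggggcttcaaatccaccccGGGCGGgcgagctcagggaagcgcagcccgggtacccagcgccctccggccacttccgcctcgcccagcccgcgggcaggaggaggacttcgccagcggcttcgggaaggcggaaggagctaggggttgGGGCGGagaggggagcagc

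The Taf7l stretch had the lowest share of G and C among these (44.8%, against 66.8% for Taf9b, 54.4% for Taf1 and 65.6% for Tbpl1, with a median of 52.4% over 32851 promoters). It was also the only one of the 4 with the letters TATAAA, present on both strands in overlapping matches that begin 150 and 148 bases before the start, and it held no GC box. TATAAA occurs in 12.4% of all promoters of this length and the GC box in 32.7%. Taf9b held 5 GC boxes and, next to one of them, an E box, which Taf7l also held, 49 bases before its start. The E box is found in 6.02% of promoters. A window before a further annotated start of Taf9b (54.4% G and C) held none of the motifs. Taf1 held 2 GC boxes, 3 CCAAT matches (33.8% of promoters) and 1 match to the Stra8 motif (6.42%), 212 bases before its start. Tbpl1 held 2 GC boxes and none of the other motifs. The Nrf1 letters, found in 2.26% of promoters, were absent from all 4 windows. These are letter matches only, and binding was not measured.

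The medians of the other TFIID subunits and of the partner factors lay between the median of the 8 members and that of all genes, while single genes lay outside that range on both sides. Of 10 further TFIID subunits 9 were tested, 7 had a negative log2 fold change, and the median was -0.34 with 0 lower and 0 higher calls. Taf6, which pairs with Taf9 or Taf9b through a histone fold, had 76.1 and 81.6 scaled reads in Eif5 cKO, against 151 and 170 in control (-1.01, SE 0.29, adjusted p = 0.105). Taf5, a WD40 scaffold subunit, had 49.99 and 66.4, against 118 and 117 in control (-1.01, SE 0.33, adjusted p = 0.177). The groups were separate for both genes, and neither passed.

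Of 11 tested partner factors of Tbp and TFIID, 0 were called, 8 had a negative sign and the median was -0.33. Btaf1, an ATPase that removes Tbp from DNA, had 128 and 200 scaled reads in Eif5 cKO, against 322 and 318 in control (-0.99, SE 0.26, adjusted p = 0.0565). It was just short of the threshold and passed under 8 of the alternatives, as given in the closing section. Brf1, a subunit of the RNA polymerase III factor TFIIIB, had 71.6 and 70.0, against 125 and 125 in control (-0.81, SE 0.31, adjusted p = 0.293). Gtf2a1l, the germ cell form of a TFIIA subunit, was at 0 to 5.38 scaled reads in all libraries and was not tested.

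Genes of SAGA, a coactivator that shares Taf subunits with TFIID, stood near the median of all genes. Of 15 tested, 0 were called, 7 had a negative sign and the median was 0.02. Its adaptor Tada2b had 57.9 and 42.2 scaled reads in Eif5 cKO, against 20.4 and 25.3 in control (1.09, SE 0.47, adjusted p = 0.383), and the acetyltransferase Kat2a had 187 and 168, against 200 and 247 in control (-0.32, SE 0.26, adjusted p = 0.703). Among 17 tested general RNA polymerase II factors, 16 had a negative sign, against 49.7% of all genes tested. Of these factors 0 were called, and their median was -0.27. Gtf2f1, the large TFIIF subunit (-0.66, SE 0.28), and Polr2e, a subunit shared by the nuclear RNA polymerases (-0.57, SE 0.24), had the smallest p in that list and did not pass (adjusted p = 0.356 and 0.361).

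**Figure D4:**
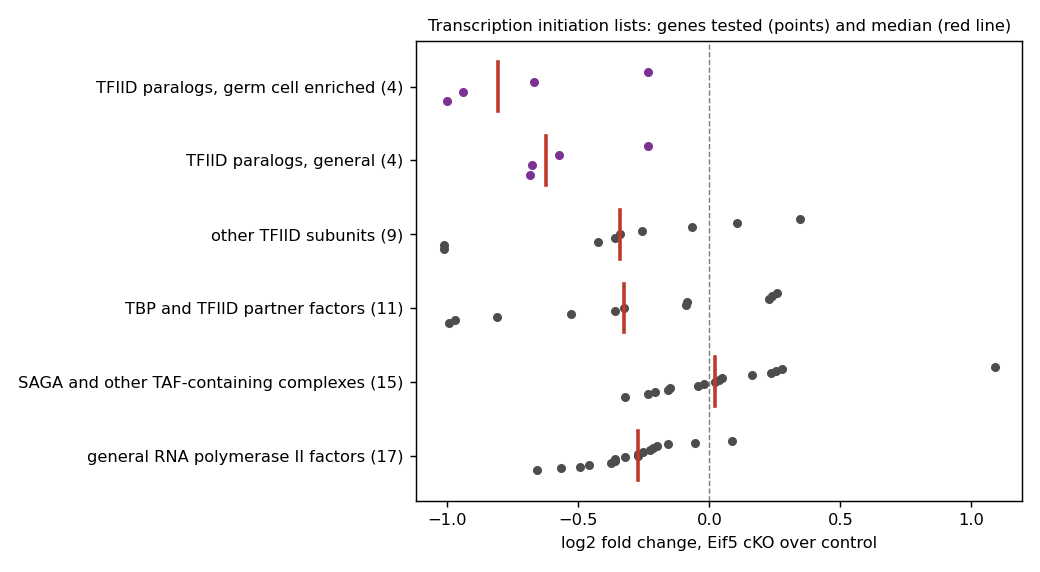
Log2 fold change, Eif5 cKO over control (x axis), of each tested gene (points) in 6 lists of transcription initiation genes (rows, number tested in brackets), with red lines for medians. The medians are -0.81 and -0.63 for the TFIID paralog lists, between -0.34 and -0.27 for other TFIID subunits, partner factors and RNA polymerase II factors, and 0.02 for SAGA.

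Lists of cell type markers differed in size and direction of change. The 14 tested pan germ cell markers had a median log2 fold change of -0.67, with 5 called lower and both knockout libraries below both controls for 13. Their summed level was 2873 and 3203 scaled reads in Eif5 cKO, against 6179 and 5765 in control. This list includes Tex101 (-1.99, SE 0.23) and Dazl (-1.14, SE 0.24), an RNA-binding protein of germ cells, both called. Differentiating spermatogonia markers had a median of -1.24 over 10 genes, 9 with a negative and 1 with a positive sign. The 3 lower calls included Meioc (-3.66, SE 0.47) and Stra8 (-1.53, SE 0.24). The sums of this list were 2754 and 2518 in Eif5 cKO, against 4091 and 3595 in control. Meiotic prophase markers had a median of -1.49 over 15 genes, with 10 lower calls, and sums of 1327 and 1558 in Eif5 cKO, against 4020 and 3815 in control. Sycp1 (-1.77, SE 0.26) and Stag3 (-1.57, SE 0.24) had the smallest p. These calls depended on the control libraries. Without control replicate 1 the lower calls were 1 pan germ cell, 0 differentiating and 0 meiotic, and without control replicate 2 they were 1, 3 and 3. The list medians stayed at -0.66 or below, -0.99 or below and -1.28 or below with any 1 library left out.

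The list of undifferentiated spermatogonia differed from these, with a median of -0.08 over 12 genes, 0 calls and overlapping sums of 1018 and 1002 in Eif5 cKO, against 1107 and 988 in control. Sohlh1 (-0.48, SE 0.32) and Sall4 (-0.45, SE 0.31) had its smallest p. Neurog3 was at 0 in at least 1 library. Somatic lists whose sums were higher in both Eif5 cKO libraries than in both controls were those of Leydig cells, with a median of 0.69 over 9 genes and sums of 3359 and 3082, against 1901 and 2334 in control, and of macrophages, with 0.40 over 10 genes and sums of 1656 and 1753, against 1147 and 1387. The Sertoli list had the same median of 0.40 over 14 genes, of which 12 had a positive sign. Both knockout libraries lay above both controls for 9 Sertoli, 5 of the 10 macrophage and 7 of the 9 Leydig genes. This held for 2413 of all 12095 genes tested. The Sertoli sums overlapped (96264 and 67196 in Eif5 cKO, against 49923 and 69283 in control), with Clu making up 73.3% of them. Medians were -0.20 for 7 myoid, 0.005 for 7 endothelial and 0.51 for 4 erythroid genes, and no gene of these somatic and blood lists was called. With libraries scaled on the pan germ cell sum, a setting added after seeing the data, the log2 fold changes were -0.028 for Taf7l and 0.031 for Taf9b. They were 0.30 for Taf4b, 0.73 for Tbpl1, 0.29 for Taf1, 0.28 for Taf4, 0.74 for Taf7 and 0.39 for Tbp. The scaling used the sum of the list, and the median of its own markers was 0.31 in this setting. The median of all genes moved to 0.96. The part of cell composition in the members' values was not tested.

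Genes with the most similar profiles over the 4 libraries were sought among 10374 tested genes with a mean of at least 20 scaled reads, by the root mean square difference of centred log2 values. For Taf7l these were Rpa2, a subunit of the single-strand DNA binding protein RPA (difference 0.039), the lipid kinase gene Pikfyve (0.041) and Mlf1 (0.043). Rpa2 had 148 and 188 scaled reads in Eif5 cKO, against 384 and 270 in control. Its higher first control, like that of Taf7l, follows from picking genes by profile. For Taf4b they were Cnot8, a deadenylase subunit (0.036), 2310035C23Rik and Gng13 (both 0.046). Cnot8 had 99.97 and 86.1 scaled reads in Eif5 cKO, against 143 and 158 in control. None of these 6 genes passed the test.

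The direction of 6 members (Taf4b, Taf7l, Taf9b, Taf1, Taf4 and Tbp) was the same whichever library was left out. The number of genes called over the whole table was not so steady: it was 82 with all libraries, 127 and 346 without Eif5 cKO replicates 1 and 2, and 10 and 20 without control replicates 1 and 2. Among the members 0 were called without Eif5 cKO replicate 1 or either control, and 2 (Taf7l and Taf9b) without Eif5 cKO replicate 2. Taf4 (-1.09 to -0.26), Taf7 (-0.63 to 0.17) and Tbp (-0.92 to -0.22) shifted most, with both ends of each range set by a knockout library. Eif5 cKO replicate 2 held the lowest value of Taf4 and Tbp, and replicate 1 that of Taf7. Taf1 and Taf9b shifted least.

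**Figure D5:**
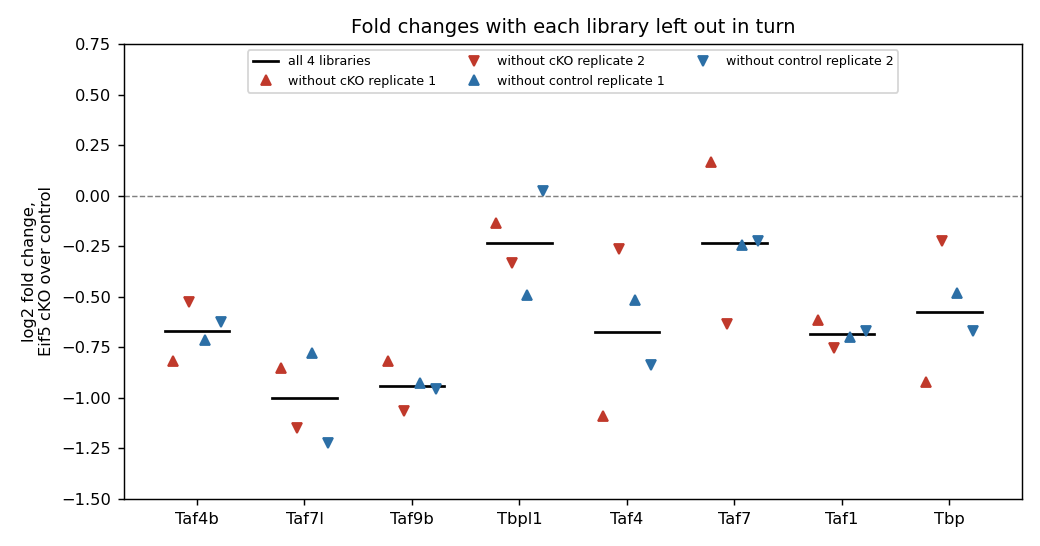
Log2 fold change, Eif5 cKO over control (y axis), of the 8 members with all 4 libraries (black line) and with each library left out in turn (triangles, red for Eif5 cKO and blue for control libraries). Taf7l stays between -1.22 and -0.78, while Tbpl1 and Taf7 reach values above 0.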

How the data were processed

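Ribosome footprints of day 10 testes were obtained with a commercial kit, per the labels' protocols. The submitters' processing notes name Bowtie2, STAR, featureCounts and the build GRCm38, with no versions. Strand and multi-mapping settings are unknown, so reads of near-identical copies and overlapping genes may be shared. The deposited values, named raw counts, are not whole numbers and were treated as a signal: each is a whole multiple of 1 step per library, which gave back whole reads for 100% of values (relative tolerance 1e-06). The recovered depths are 2296938 to 2934609 reads. No row lacked a name. Symbols were matched to RefSeq (13941 directly, 682 by synonym, 361 unmatched).

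Group differences in log2(value + 1) were fitted with limma 3.58.1 (R 4.3.3, trend option) over the 12095 genes that pass filterByExpr of edgeR 4.0.16 (minimum count 10). This scale understates changes of low genes. P-values are two-sided and Benjamini-Hochberg adjusted over all genes tested, with a call at an adjusted p under 0.05. Paralog ratios, log2((paralog + 1)/(counterpart + 1)), were compared by exact permutation tests. Alternatives included edgeR and DESeq2 1.42.0 on the recovered reads, other scalings, pseudocounts and filters, a replicate block, and each library left out. The fits were tested on simulated data. Same-numbered libraries did not deviate together (correlation across genes -0.047), so the numbers were not taken as pairs. Replicates were not duplicates of one library (chi-square per degree of freedom 9.83 in Eif5 cKO and 7.57 in control) and each was counted as 1 sample.

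The members, the 16 gene lists and the tests were chosen with earlier results of these data known. Genes named are the members, Eif5 and the 2 with the smallest p in each transcription and germ cell list (somatic lists are given by counts). Also named are the 3 with the profile most like that of Taf4b and of Taf7l, and Slc2a12, Ak6 and Gm37013, which overlap a member. The span of Taf4b also holds pseudogenes and a lncRNA, and that of Tbpl1 a microRNA gene, which were not analysed here. Gtf2a1l, Neurog3 and Clu were named after their values were seen. No RNA libraries were analysed here.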

Additional observations from a re-analysis of the deposited data

How the results depend on the processing

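Of 18 alternative fits, 2 of them added after seeing the data, 11 kept the call on Taf7l, among them edgeR (adjusted p = 0.0230), DESeq2 (0.0263) and limma-voom (0.00756). It lost the call with scaling on the Sertoli list (-1.45) or the RNA polymerase II factors (-0.68). Scaling on the undifferentiated spermatogonia list (-0.95) or the pan germ cell list (-0.028) lost it too. Each of them left 0 members called except the pan germ cell list, which called 2 higher, beside 7042 of the 12095 genes tested. These scalings moved the median of all genes to -0.44, 0.32, 0.05 and 0.96. Scaling on the RNA polymerase II factors gave 28 lower and 74 higher calls, against 73 and 9, and log2 fold changes of 0.088 for Tbpl1 and 0.089 for Taf7. Scaling on the pan germ cell list gave 7078 calls, 36 lower and 7042 higher, with 30 of the higher calls in the 4 other transcription lists. Log2 fold changes were then 0.30 for Taf4b, 0.031 for Taf9b, 0.73 for Tbpl1, 0.29 for Taf1, 0.28 for Taf4, 0.74 for Taf7 and 0.39 for Tbp. The median of the pan germ cell markers themselves was 0.31 in that setting. Scaling on undifferentiated spermatogonia gave 38 calls. The cause was not tested. Leaving out 1 library gave 10 to 346 calls, 0 to 2 among members and 0 to 2 in the 4 other lists, with ranges of -1.22 to -0.78 for Taf7l, -1.06 to -0.82 for Taf9b, -1.09 to -0.26 for Taf4, -0.92 to -0.22 for Tbp, -0.63 to 0.17 for Taf7 and -0.49 to 0.024 for Tbpl1. In the 4 other lists 1 gene, Btaf1, passed with limma-voom, TMM factors, library totals, a pseudocount of 4, either other filter or the replicate block, and Btaf1 and Taf5 without Eif5 cKO replicate 2. The replicate block gave 100 calls and kept Taf7l (adjusted p = 0.0281). The log2 ratio difference ran from -0.26 to 0.27 for Taf4b over Taf4 (-0.023 with a pseudocount of 4) and from -0.11 to 0.79 for Tbpl1 over Tbp with 1 library left out. That for Taf7l over Taf7 ran from -1.02 to -0.51 with 1 library left out. Other pseudocounts moved it little, and the replicate block leaves such a difference unchanged. The depth of Taf4, at 33 to 88 reads a library, limits what can be seen of it.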
